A study of Mus musculus with 16 samples.

Results

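Interleukin-33 (IL-33) was given for 4 h to RAW264.7 cells, a mouse macrophage-like cell line, that had first been grown in the cytokines of Th2 cells, IL-4 and IL-13 (interleukins too). MicroRNA levels were measured on 8 of the 16 arrays of the series, 4 with IL-33 (Th2_IL33) and 4 without (Th2), chosen by their labels alone. Per the labels, both groups were cultured for 48 h in complete medium with the Th2 cytokines at 10 ng per ml and then washed. Th2_IL33 received murine recombinant IL-33 at 20 ng per ml, and Th2 was left unstimulated. The medium-grown groups, Media without IL-33 and Media_IL33 with it, had the same 48 h of culture without IL-4 and IL-13 and hold the other 8 arrays. All groups are 1 cell line, so no primary macrophage was measured. The 4 arrays of a group come from 4 independent experiments, and arrays with the same replicate number share an experiment.

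MicroRNAs (miRNAs) are short RNAs that guide Argonaute proteins to messenger RNAs and lower their translation or stability. The seed, bases 2 to 8 from the 5′ end, sets most of the pairing with a target, so miRNAs with the same seed can act on overlapping targets. IL-33 is an alarm cytokine released by damaged epithelium. Its receptor ST2 signals through the adaptor MyD88 to NF-kB, the same route that Toll-like receptors use. In macrophages that route is known to switch on the genes of miR-155, miR-146a and miR-21, whereas IL-4 and IL-13 drive the alternative, Th2-type state of the cell.

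Of 1247 mouse miRNAs on the array, 198 were detected by the scanner software on all 8 arrays, 985 on none and 64 on some. The comparison covered the 231 miRNAs for which at least 1 of the 4 groups had a detection call on each of its arrays. Of these, 4 were higher in Th2_IL33 (1.73% of those tested) and 0 were lower (0%) at an adjusted p under 0.05 by limma. At an unadjusted p under 0.05 there were 6, again all higher. The 4 were miR-155-5p, miR-21a-3p, miR-146a-5p and miR-222-5p. Their levels are given as relative signal, the array signal divided by the 75th percentile of that array over the 178 miRNAs detected on all 16 arrays, and values under a floor of 0.0353 were set to it. In RNA from whole wells, more cells with a miRNA and more of it per cell cannot be told apart.

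The mature sequences are shown because they separate the arms and the seed families that the results turn on. They are from RefSeq with coordinates on GRCm38.p6, and the seed is in capitals.
miR-155-5p: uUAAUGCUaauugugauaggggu
miR-21a-3p: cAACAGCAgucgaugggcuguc
miR-21a-5p: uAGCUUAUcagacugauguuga
miR-146a-5p: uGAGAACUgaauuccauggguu
miR-146b-5p: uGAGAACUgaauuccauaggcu
miR-222-3p: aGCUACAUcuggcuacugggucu
miR-221-3p: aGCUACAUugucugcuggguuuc
miR-99b-5p: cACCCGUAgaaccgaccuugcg
let-7e-5p: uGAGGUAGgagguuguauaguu
miR-125a-5p: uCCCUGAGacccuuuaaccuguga
miR-155-5p lies at chr16:84714143-84714165 on the plus strand, within the span of its host gene Mir155hg. Both miR-21a arms lie on the minus strand within the span of Vmp1, the 5p arm at chr11:86584120-86584141 and the 3p arm at chr11:86584082-86584103. miR-146a-5p is at chr11:43374435-43374456 on the minus strand. miR-146b-5p is at chr19:46342790-46342811 on the plus strand, in the span of the gene model Gm36493. It shares the seed of miR-146a-5p and differs from it by the substitutions G18A and U21C, counted from 1 at the 5′ end of miR-146a-5p. miR-222-3p (chrX:19146901-19146923) and miR-221-3p (chrX:19146307-19146329) share the seed GCUACAU, and their hairpins lie 504 bases apart on the minus strand. miR-99b-5p (chr17:17830194-17830215), let-7e-5p (chr17:17830366-17830387) and miR-125a-5p (chr17:17830817-17830840) lie in that order on the plus strand within the span of Spaca6. Which exon or intron of a host gene holds a miRNA was not analysed here.

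The hairpins of 3 of the risen miRNAs show both arms, with the mature arms in capitals. For Mir222 (chrX:19146893-19146971, minus strand) the first run of capitals is the stretch complementary to the longest probe for miR-222-5p, and the second is miR-222-3p.
Mir155: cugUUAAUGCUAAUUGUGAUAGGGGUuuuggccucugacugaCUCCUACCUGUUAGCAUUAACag
Mir21a: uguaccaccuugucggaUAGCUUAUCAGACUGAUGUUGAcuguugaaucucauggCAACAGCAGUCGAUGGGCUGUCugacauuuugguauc
Mir222: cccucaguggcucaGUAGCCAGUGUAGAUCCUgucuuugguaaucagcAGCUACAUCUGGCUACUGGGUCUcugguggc
miR-21a-3p and miR-222-5p are the arms of their hairpins usually called the passenger, or star, strand, and miR-155-5p and miR-146a-5p are the guide strands.

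By correlation within the group, the 8 arrays were similar except for Th2_IL33 2. Across the 231 miRNAs its median correlation with its own group was 0.945, against 0.984 to 0.991 for the others of the 8. Outlier spots ran from 2288 to 3151 on the Th2 arrays and from 2040 to 2532 on the Th2_IL33 arrays. The miRNAs detected per array ran from 223 to 231 and from 219 to 256. The slide and the group overlapped only in part. Th2 1, 2 and 3 were on slide 1, and Th2 4 shared slide 2 with all 4 Th2_IL33 arrays, so experiment 4 is the one pair within a slide. Of the markers of blood cells, miR-223-3p, miR-142a-3p and miR-142a-5p were detected on all 8 arrays. The other listed marker, miR-155-5p, was detected on 1 of 4 Th2 and 4 of 4 Th2_IL33 arrays. Of 18 miRNAs that mark other cells or serum, 17 were detected on none of the 8, and miR-206-3p, a muscle miRNA, was detected on 2 of 4 arrays in each group. Per the deposited scanner files, 0 spots were saturated. Precision is limited by having 4 arrays per group. The median SE of a log2 difference was 0.18, and for 196 of the 231 miRNAs the 95% interval of the difference lay within 1 log2 unit of 0 on both sides.

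miR-155-5p, the product of Mir155hg that restrains the phosphatase SHIP1 and the regulator SOCS1, had the largest difference of the 231. Its relative signal was 0.0353, 0.0375, 0.0397 and 0.0545 on the Th2 arrays of experiments 1 to 4. With IL-33 it was 0.187, 0.156, 0.116 and 0.146. The groups did not overlap, and the lowest IL-33 array stood above the highest Th2 array in the plot of relative signal by array. The log2 difference was 1.86 ± 0.19 (SE, n = 4 per group, 95% interval 1.44 to 2.27, limma adjusted p = 2.38e-05). Experiments 1 to 4 gave 2.40, 2.06, 1.55 and 1.42. It was well above background on 0 of 4 Th2 and 4 of 4 Th2_IL33 arrays, so the fold is a bound, at least 2.79-fold higher. It was detected on all arrays of the 2 IL-33 groups only, and so entered the test through them. With normexp background correction the log2 difference was 0.41 (adjusted p = 0.0112). That setting adds an offset of 50 intensity units to each spot, which by itself shrinks log2 differences of dim signals. Within slide 2, where 4 Th2_IL33 arrays meet 1 Th2 array, it was 1.45 (adjusted p = 0.106). The other arm, miR-155-3p, was detected on none of the 16 arrays.

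miR-21a-3p was the other miRNA that differed by more than 1 log2 unit. It was 0.0811, 0.0622, 0.0693 and 0.118 on the Th2 arrays and 0.222, 0.257, 0.195 and 0.197 with IL-33. The groups did not overlap. The log2 difference was 1.43 ± 0.24 (SE, n = 4 per group, 95% interval 0.91 to 1.95, limma adjusted p = 0.00366). Experiments 1 to 4 gave 1.45, 2.05, 1.49 and 0.74, the smallest being the pair within slide 2. On 3 of 4 Th2 arrays it was not well above background. The fold of 2.70 rests on the measured signals of those arrays and is no bound. The difference was 0.28 with normexp background correction (adjusted p = 0.139) and 0.88 within slide 2 (adjusted p = 0.265).

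The other arm of the same hairpin, miR-21a-5p, is known to target the translation inhibitor Pdcd4. It was 18.0, 16.2, 16.01 and 24.7 on the Th2 arrays and 21.8, 24.3, 21.7 and 30.4 with IL-33. Each experiment was higher with IL-33, by 0.28, 0.59, 0.44 and 0.30 log2 units, but the groups overlapped because Th2 4 exceeded 3 of the IL-33 arrays. The log2 difference of 0.40 ± 0.23 (SE, 95% interval -0.09 to 0.89) did not pass (limma adjusted p = 1). With quantile normalization the log2 difference of miR-21a-5p was 0. In the main scaling both arms were 4 of 4 higher, and whether their differences are unequal was not tested.

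miR-146a-5p, which limits NF-kB signalling through TRAF6 and IRAK1, was 0.335, 0.309, 0.287 and 0.216 on the Th2 arrays. With IL-33 it was 0.531, 0.646, 0.488 and 0.468, above every Th2 array. The level differed by a log2 value of 0.90 ± 0.16 (SE, n = 4 per group, 95% interval 0.56 to 1.24, limma adjusted p = 0.00366), a 1.87-fold higher level. Experiments 1 to 4 gave 0.66, 1.06, 0.77 and 1.11. It was well above background on all 8 arrays. Within slide 2 the difference was 1.29 (adjusted p = 0.0887). It was 0.52 with normexp background correction (adjusted p = 0.0113). In the authors' deposited table it was 0.93 with an adjusted p of 0.123, and scaled to a percentile that takes in every miRNA on the array it was 1.01 with 0.0738.

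miR-146b-5p, with the same seed on another chromosome, went from 0.179, 0.147, 0.126 and 0.0978 to 0.190, 0.229, 0.158 and 0.153. All 4 experiments were positive (0.08, 0.64, 0.32 and 0.65), while the groups overlapped. It differed by 0.42 ± 0.22 (SE, 95% interval -0.04 to 0.88, limma adjusted p = 1). The seed GAGAACU is shared by these 2 tested miRNAs.

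miR-222-5p comes from the X-linked hairpin whose 3p arm represses the cell-cycle inhibitor p27. It was 0.129, 0.131, 0.107 and 0.0803 on the Th2 arrays and 0.203, 0.223, 0.169 and 0.188 with IL-33. No array of one group fell within the other. The log2 difference was 0.82 ± 0.19 (SE, n = 4 per group, 95% interval 0.42 to 1.23, limma adjusted p = 0.0338), a 1.77-fold higher level. Experiments 1 to 4 gave 0.66, 0.76, 0.65 and 1.22. This call was close to the threshold: with the experiments as a replicate block the adjusted p was 0.0578. Without Th2 3 it was 0.111, without Th2 4 0.141, and without Th2_IL33 1, 2 or 4 it was 0.119, 0.142 and 0.0832. In all it was lost under 13 of 23 alternatives, among them the authors' deposited table (0.947), quantile normalization (0.554), the percentile over all miRNAs (0.208) and the 8 arrays alone (0.0882). Normexp background correction left a difference of 0.21 (adjusted p = 0.352), and the value within slide 2 was 1.28 (adjusted p = 0.0887).

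The 3p arms of that locus, the guide strands, did not pass. miR-221-3p was 2.53, 2.40, 2.25 and 1.94 without IL-33 and 2.73, 3.17, 2.35 and 3.02 with it, higher in 4 of 4 experiments with overlapping groups (log2 difference 0.30 ± 0.19, limma adjusted p = 1). miR-222-3p was 0.744, 0.712, 0.674 and 0.548 without IL-33 and 0.812, 0.899, 0.629 and 0.842 with it. Experiment 3 was lower and the others higher (0.25 ± 0.17, limma adjusted p = 1). miR-221-5p was detected on none of the 16 arrays.

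**Figure D1:**
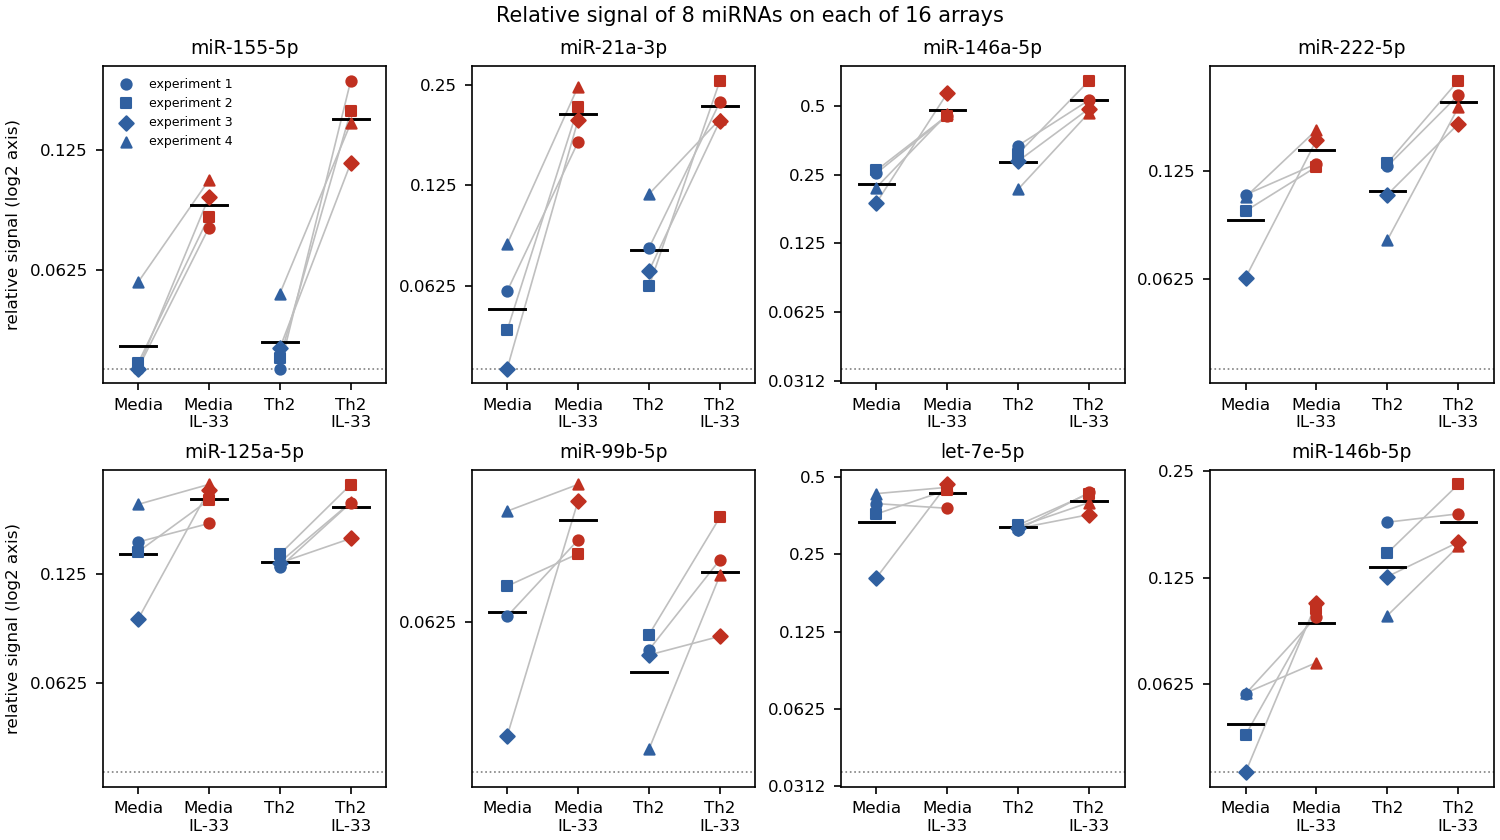
Relative signal (log2 axis) of 8 miRNAs on each of the 16 arrays, 4 per group. Points are single arrays with a shape per experiment, grey lines join arrays of an experiment, black bars are geometric means and the dotted line is the floor of 0.0353. In miR-155-5p, miR-21a-3p, miR-146a-5p and miR-222-5p all 4 Th2_IL33 arrays lie above all 4 Th2 arrays.

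The miR-99b, let-7e and miR-125a cluster did not pass the test, and its differences were all positive. miR-125a-5p, which is known to target the NF-kB regulator A20 (Tnfaip3), was 0.131, 0.142, 0.134 and 0.135 on the Th2 arrays and 0.197, 0.221, 0.157 and 0.197 with IL-33. The groups were apart, and the experiments gave 0.59, 0.64, 0.22 and 0.55. Its log2 difference was 0.50 ± 0.18 (SE, 95% interval 0.12 to 0.89, limma adjusted p = 0.658). let-7e-5p, a let-7 family member, was 0.312, 0.326, 0.316 and 0.321, then 0.436, 0.432, 0.358 and 0.399. These groups were apart too, with a log2 difference of 0.35 ± 0.19 (95% interval -0.05 to 0.74, limma adjusted p = 1).

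miR-99b-5p, the first miRNA of the cluster, was 0.0563, 0.0596, 0.0552 and 0.0386 without IL-33 and 0.0793, 0.0932, 0.0592 and 0.0748 with it. It was well above background on 0 of 4 and 4 of 4 arrays. Th2_IL33 3 lay just under Th2 2, so the groups overlapped. Its difference was 0.55 ± 0.23 (95% interval 0.06 to 1.03, limma adjusted p = 1). Over the 5 tested of 6 cluster members on the array, the median was 0.35 and all 5 differences were positive, 4 of them in 4 of 4 experiments (27 of 231 over all tested miRNAs), with 0 past the threshold. One of them, miR-125a-3p, was detected on all arrays of the 2 IL-33 groups only, and so entered the test through them. It was well above background on 0 of 4 Th2 and 1 of 4 Th2_IL33 arrays. The median over all 231 miRNAs was 0.0015. With array weights, let-7e-5p (adjusted p = 0.0148) and miR-125a-5p (0.00399) did pass, and miR-99b-5p did not. In a limma fit to the 8 arrays alone, none of these passed. The adjusted p was then 0.0951 for miR-125a-5p, 0.134 for let-7e-5p and 0.574 for miR-99b-5p.

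The related clusters that carry miR-99a, let-7c, miR-100 and miR-125b have the same seeds at other loci. Their 4 tested members had a median of 0.024, from -0.12 for miR-100-5p to 0.066 for miR-99a-5p, with 2 positive and 2 negative (median -0.021 without Th2_IL33 2). With the shared seed CCCUGAG, miR-125a-5p was 0.50 and miR-125b-5p -0.01. The 10 tested miRNAs with the let-7 seed GAGGUAG ran from -0.11 to 0.35, with let-7e-5p the highest. Among the 170 tested miRNAs that matched a RefSeq sequence there were 135 seeds, of which 18 were shared by 53 miRNAs.

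**Figure D2:**
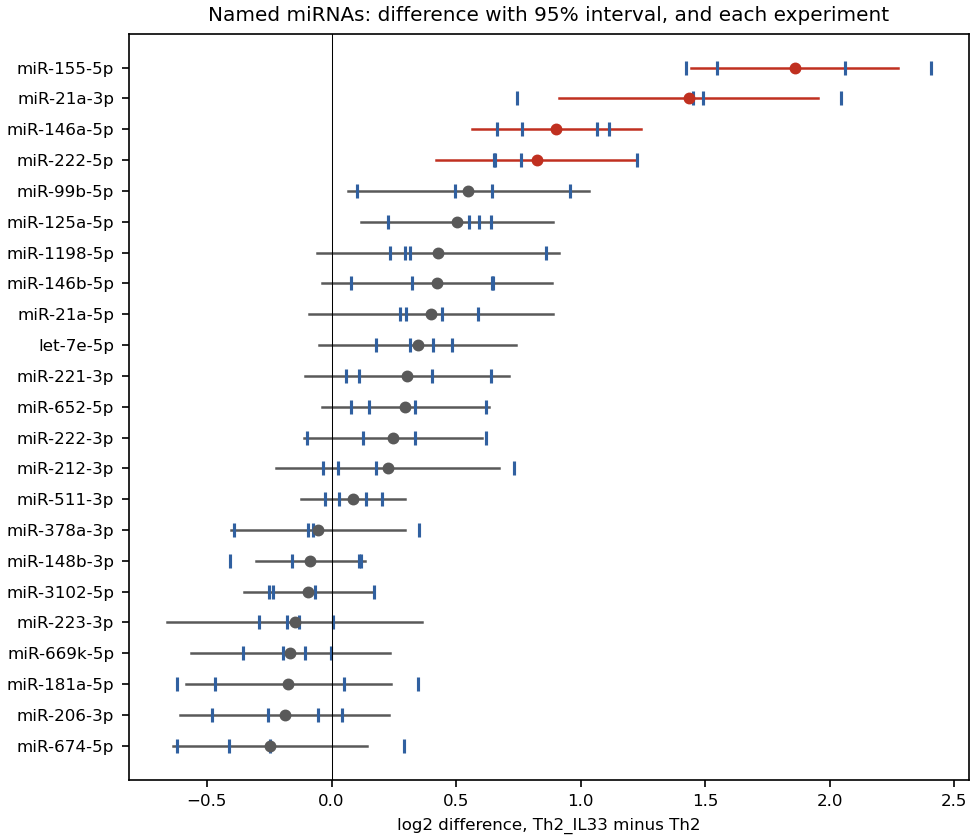
Log2 difference (Th2_IL33 minus Th2) of the 23 named miRNAs with its 95% interval from limma (4 arrays per group). Blue ticks are the 4 experiments, and red marks an adjusted p under 0.05. The intervals of miR-155-5p, miR-21a-3p, miR-146a-5p and miR-222-5p start at 1.44, 0.91, 0.56 and 0.42.

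Over all tested miRNAs the groups did not overlap for 9 with higher values (3.90%) and for 0 with lower values (0%). The counts were 6 and 0 with the percentile over all miRNAs, 5 and 0 with quantile normalization, 7 and 0 with normexp, and 5 and 1 in the authors' deposited table. Beyond the 4 that rose the 9 were miR-125a-5p, let-7e-5p, miR-125a-3p, miR-1904 and let-7i-5p, of which the last 3 were named after their values were seen. Among the 9, miR-155-5p and miR-125a-3p entered the test through the IL-33 groups alone. Counted by experiment, 27 miRNAs were higher in 4 of 4 and 1, miR-669k-5p, was lower in 4 of 4. These counts differed with the scaling: with the percentile over all miRNAs, which moved the median difference to 0.10, they were 57 and 0. With quantile normalization they were 18 and 2, they were 20 and 2 in the authors' deposited table, and with normexp 15 and 1. The median absolute log2 difference was 0.0899, and 119 differences were positive and 111 negative. miR-1198-5p (0.43 ± 0.23) and miR-652-5p (0.30 ± 0.16) had the next smallest p values among positive differences, with adjusted p of 1 in limma.

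**Figure D3:**
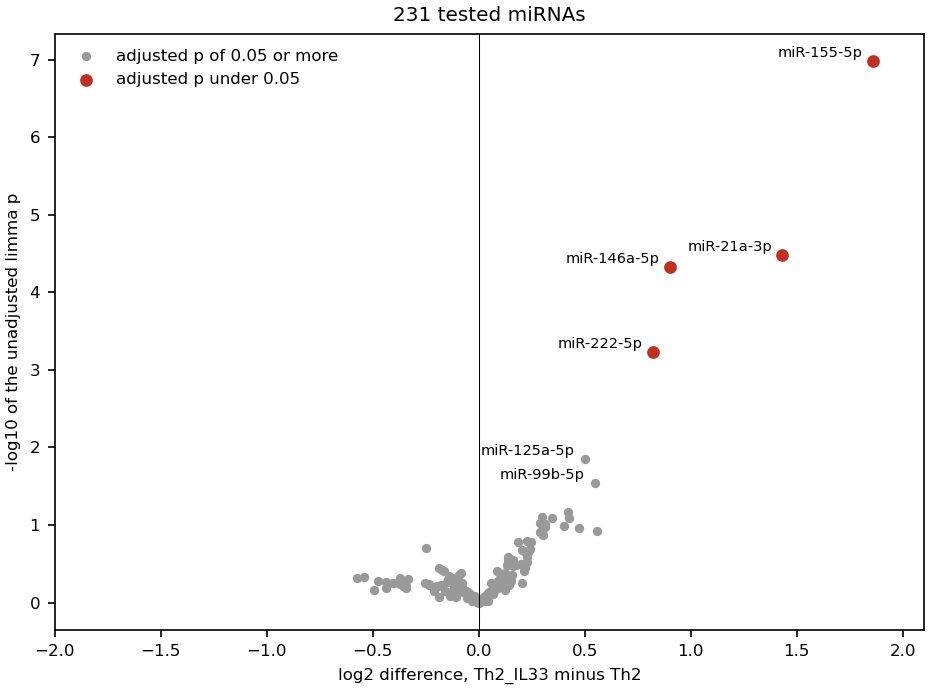
Each point is 1 of the 231 tested miRNAs, with the log2 difference (Th2_IL33 minus Th2) on the x axis and -log10 of the unadjusted limma p on the y axis. The 4 red points past the threshold all lie to the right, and 0 lie to the left.

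The inflammatory list held 17 miRNAs known to respond to Toll-like receptor or NF-kB signals, of which 7 were tested and 10 were detected on none of the 8 arrays. Of the 7, 3 rose (miR-155-5p, miR-21a-3p and miR-146a-5p) and 0 fell, beside 1.73% of all tested miRNAs, and 6 were higher in 4 of 4 experiments (27 of 231 over all). The list was drawn up with earlier results of these arrays known, and miR-155-5p entered the test through the IL-33 groups. Its counts beside those of all tested miRNAs are therefore no independent support. The median difference was 0.50. The lowest was miR-212-3p, the cAMP-responsive partner of miR-132: 0.792, 0.587, 0.785 and 1.01 without IL-33, and 0.807, 0.975, 0.889 and 0.986 with it (log2 difference 0.23 ± 0.21, limma adjusted p = 1). Of other inflammatory miRNAs, miR-132-3p, miR-9-5p, miR-147-3p and miR-146a-3p were detected on none of the 16 arrays. In the miR-221 and miR-222 list 3 were tested, with a median of 0.30 and 1 that rose, miR-222-5p.

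Of the 8 tested miRNAs in the list raised by Th2 cytokines 0 passed, beside 1.73% over all tested miRNAs. miR-511-3p, whose host gene Mrc1 encodes the mannose receptor, was 0.235, 0.229, 0.220 and 0.251 and then 0.240, 0.251, 0.216 and 0.289. Its log2 difference was 0.09 ± 0.10 (SE, 95% interval -0.12 to 0.29). miR-378a-3p, which lies in the PGC-1beta gene Ppargc1b, was 0.353, 0.376, 0.329 and 0.262 and then 0.336, 0.352, 0.250 and 0.334. Its log2 difference was -0.05 ± 0.16 (95% interval -0.40 to 0.30). The 8 members, on a list that was drawn up with earlier results of these arrays known, ran from -0.19 (miR-378a-5p) to 0.29 (miR-22-3p) around a median of 0.0017 (0.053 without Th2_IL33 2). The 6 tested miRNAs of the chloride channel gene Clcn5 ran from 0.027 to 0.079, all positive, with 0 past the threshold and a median of 0.053 (0.025 without Th2_IL33 2).

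The myeloid miRNA miR-223-3p, which restrains the inflammasome protein NLRP3, was 1.11, 1.19, 1.02 and 0.598 without IL-33 and 0.980, 1.09, 0.836 and 0.6004 with it. Experiment 4 was the lowest in both groups. The log2 difference was -0.15 ± 0.24 (SE, 95% interval -0.66 to 0.36, limma adjusted p = 1). miR-142a-3p, a blood-cell miRNA, differed by 0.03 ± 0.15. The myeloid list had a median of -0.043 over 3 tested members (-0.13 without Th2_IL33 2), and 0 passed.

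Among proliferation and family lists, 0 members passed in any. The medians were 0.11 for miR-17-92 (7 tested, all positive), -0.047 for miR-106b-25 and miR-106a-363 (4), 0.018 for let-7 and miR-98 (8), 0.025 for miR-15, miR-16 and miR-322 (4), -0.062 for miR-23, miR-27 and miR-24 (5), 0.072 for miR-29 (3), 0.044 for miR-30 (6), -0.15 for miR-181 (3), -0.11 for miR-26 (2), 0.027 for miR-183, miR-96 and miR-182 (3) and 0.030 for stress miRNAs (2). Several of these depended on Th2_IL33 2. Without it the median was 0.0057 for miR-181, -0.028 for miR-30, -0.048 for stress miRNAs, 0.038 for miR-17-92, 0.020 for miR-29, 0.0053 for miR-15, miR-16 and miR-322, -2e-04 for let-7 and miR-98, -0.096 for miR-106b-25 and miR-106a-363, -0.20 for miR-26 and 0.059 for miR-183, miR-96 and miR-182. The median over all 231 was then 0.040. The tested miRNA of the list of other cells was miR-206-3p (-0.19 ± 0.20, limma adjusted p = 1).

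The 32 tested miRNAs with the names of the Sfmbt2 cluster (61 on the array) had a median of -0.20, with 30 negative and 0 past the threshold. This direction rested on Th2_IL33 2. The experiment medians were 0.14, -1.22, 0.23 and -0.15, and without that array the list's median was 0.11. The array's example miR-467b-3p, with the lowest difference of all 231, was 0.309, 0.327, 0.340 and 0.279 without IL-33 and 0.331, 0.0567, 0.417 and 0.249 with it (log2 difference -0.58 ± 0.79). It was named after its values were seen. In all, 22 of the 231 miRNAs had a 95% interval wider than 2 log2 units. In all 22 the array Th2_IL33 2 was the lowest of its own group, and 13 carry Sfmbt2-family names. The spread behind each interval was pooled over every group, so the Media arrays set its width too. For miR-467b-3p the Media arrays were 0.0588, 0.381, 1.83 and 0.195, a wider spread than in Th2_IL33. How much of the width came from each array was not tested.

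**Figure D4:**
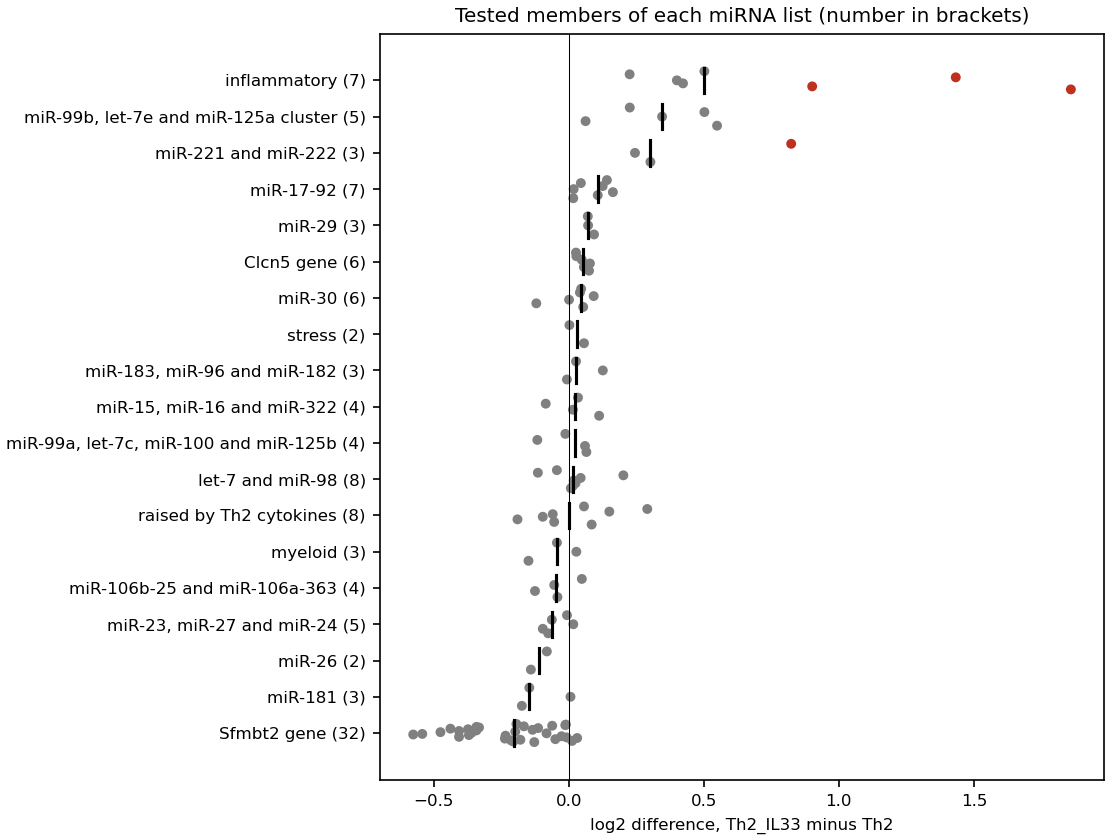
Log2 difference (Th2_IL33 minus Th2) of the tested members of each miRNA list with at least 2 tested members, 1 point per miRNA. The black bar is the list's median, and red marks an adjusted p under 0.05. The inflammatory list is highest with a median of 0.50, and the Sfmbt2 names are lowest at -0.20, a value that was 0.11 without Th2_IL33 2. The lists were chosen with earlier results of these data known.

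No tested miRNA passed the threshold as lower, which does not show that none fell. The negative differences with the smallest p were those of miR-674-5p (-0.25 ± 0.18), miR-206-3p, miR-181a-5p (-0.17 ± 0.19), miR-669k-5p (-0.17 ± 0.19), miR-148b-3p (-0.09 ± 0.10) and miR-3102-5p (-0.09 ± 0.12), with limma adjusted p of 1 each. miR-674-5p and miR-206-3p were well above background on none of the 8 arrays. miR-669k-5p, of the Sfmbt2 names, was 0.0752, 0.0672, 0.0856 and 0.102 without IL-33 and 0.0750, 0.0526, 0.0795 and 0.0893 with it.

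Detection calls changed on at least 3 arrays for 4 miRNAs, all of them gained with IL-33. miR-155-5p went from 1 to 4 arrays and miR-1249-3p from 1 to 4, while miR-195a-5p and miR-497a-5p, neighbours in 1 cluster, went from 0 to 3. The mean relative signal of miR-1249-3p was 0.0543 and 0.0585, of miR-195a-5p 0.0356 and 0.0400, and of miR-497a-5p 0.0397 and 0.0423, so for these 3 the calls changed with a small change of signal near the floor. No miRNA lost detection on 3 or more arrays, and 0 went from none to all 4 or the reverse.

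Each miRNA is read by 1 to 4 probes of different length, so probes for a miRNA share the RNA and array and are no replicates. For miR-146a-5p the 19-base and 18-base probes gave log2 differences of 0.89 and 0.82. For miR-155-5p the 18-base probe gave 1.57, and the 17-base probe was below the probe floor of 0.0415 on all 8 arrays. For miR-21a-3p the 15-base probe gave 1.36 and the 14-base probe 0.93, and the 13-base and 12-base probes were below the floor. For miR-222-5p the 18-base probe gave 0.79, and the other probes were below the floor. For miR-155-5p and miR-222-5p just 1 probe each was above the probe floor, while the tested sums took in all probes. The mean signal of the 17-base probe went from 0.0089 to 0.0239 for miR-155-5p and from 0.0170 to 0.0307 for miR-222-5p. For miR-125a-5p the 19-base probe gave 0.54 and the 18-base probe 0.24.

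Whether IL-33 acted to another degree in medium-grown cells was asked with the interaction, in which the medium-grown difference is subtracted from the Th2-grown one. Of 231 miRNAs, 0 passed (0%), with a smallest limma adjusted p of 0.995 and 5 at an unadjusted p under 0.05. In medium-grown cells 4 miRNAs passed the threshold as higher (1.73%) and 0 as lower. The Media arrays varied more: Media 1, 2 and 3 had median correlations with their group of 0.92, 0.92 and 0.874. Without Media 1, Media 3 and Th2_IL33 2 the medium count was 2 (miR-146a-5p and miR-21a-3p), and the interaction count stayed 0. miR-155-5p was 0.0353, 0.0364, 0.0353 and 0.0581 in Media and 0.0798, 0.0850, 0.0952 and 0.105 in Media_IL33 (1.17 ± 0.19). Its interaction was 0.69 ± 0.27 (SE, 95% interval 0.10 to 1.27, unadjusted p = 0.0246, adjusted p = 0.995), and it passed with array weights. Without IL-33, just 1 Media array and 0 Th2 arrays had a signal well above background, so both differences depend on signals near the floor.

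For miR-21a-3p the difference was 1.93 ± 0.24 in medium, with an interaction of -0.50 ± 0.35 (95% interval -1.24 to 0.24). For miR-146a-5p it was 1.08 ± 0.16, with an interaction of -0.17 ± 0.22 (95% interval -0.65 to 0.31). miR-146b-5p rose in medium-grown cells (0.95 ± 0.22, limma adjusted p = 0.0319) and did not pass in Th2-grown cells. Its interaction of -0.52 ± 0.31 (95% interval -1.17 to 0.13) did not pass. miR-222-5p differed by 0.65 ± 0.19 in medium (limma adjusted p = 0.179), with an interaction of 0.18 ± 0.27 (95% interval -0.39 to 0.75). miR-125a-5p differed by 0.51 ± 0.18 there, with an interaction of -0.0030 ± 0.26. These intervals allow differences of about 0.5 log2 units or more in either or both directions, so a like response was not shown.

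**Figure D5:**
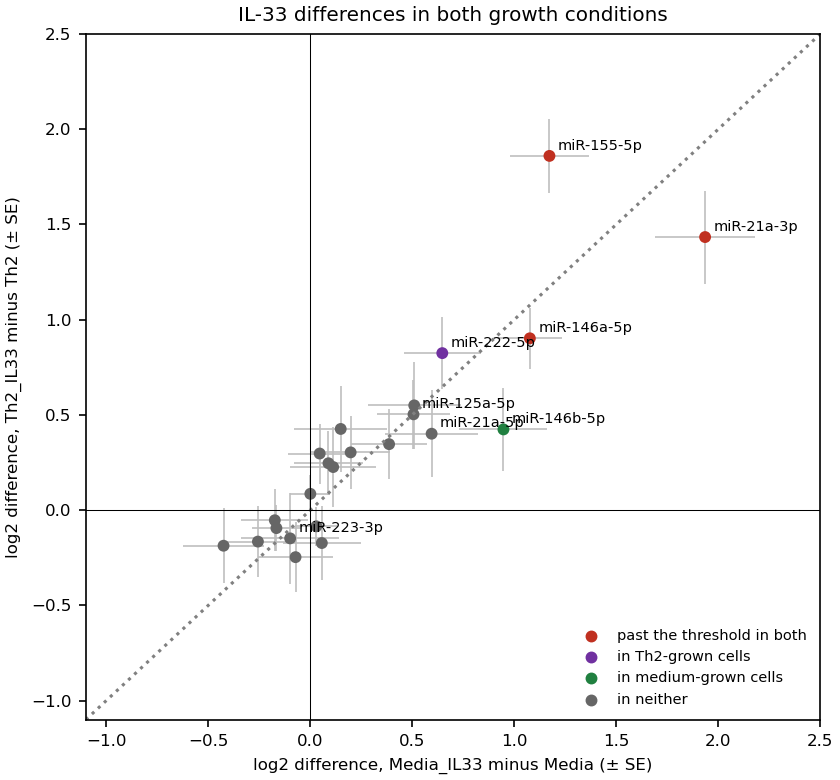
Log2 difference with IL-33 of the 23 named miRNAs in medium-grown cells (x axis) and Th2-grown cells (y axis), with SE bars from limma (4 arrays per group). The dotted line marks equal differences. miR-155-5p lies above it (1.86 in Th2-grown, 1.17 in medium-grown cells) and miR-21a-3p below (1.43 and 1.93), and 0 miRNAs passed the test of that difference.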

How the data were processed

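Total RNA was labelled and hybridised to single-colour Agilent mouse miRNA arrays, per the labels' protocols. Feature extraction used Agilent's software, version 10.7.3.1, per the file headers. The deposited intensity of each of 49880 miRNA spots per array is background-subtracted and not normalized between arrays. The authors' deposited set of probe intensities was made with Partek 6.6 and RMA, per the submitters' processing notes, and was used as an alternative. It is quantile normalized on the linear scale.

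Control and outlier spots were left out, spots of a probe were averaged and probes of a miRNA summed. Scaling was to the 75th percentile (427 to 654 intensity units), taken over the 178 miRNAs found on all 16 arrays. Values under 0.0353, the 1st percentile of detected signals, were set to it, and log2 was taken. The package limma 3.58.1 under R 4.3.3 (with data.table, version 1.17.8, for reading) fitted 1 mean per group to all 16 arrays (12 residual degrees of freedom), tested on simulated data first. Benjamini-Hochberg adjustment was over 231 miRNAs, with a threshold of 0.05. Mean differences are log2, Th2_IL33 minus Th2. A fold is given as at least where no array of the dimmer group was well above background, against the lowest signal well above background there.

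The experiment letters in the labels pair arrays of the same replicate number. The deviations from the group means of the same-numbered Th2 and Th2_IL33 arrays correlated at -0.404, 0.404, 0.491 and 0.258. The same-numbered array was the best match for replicate 3 but not for replicates 1, 2 and 4. The pairing therefore rests on the labels. Named miRNAs were those past the threshold, the 6 smallest p in each direction among the rest, and 16 inflammatory, Th2 and cluster miRNAs. Members and lists were chosen with earlier results of these data known. Alternatives covered blocks for slide and replicate, scaling, background correction, floor, probe summary, detection filter, array weights and left-out arrays. The normexp background correction was run with an offset of 50 intensity units per spot.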

Additional observations from a re-analysis of the deposited data

Results flagged for a closer look

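Over 46 groups of 4 arrays (23 named miRNAs in Th2 and Th2_IL33), 3 held an array far from the other 3, and chance gives about 1 in 20. miR-181a-5p was 0.0357 on Th2 4, the lowest of the group and just above the floor. It was well above background on 0 of 4 Th2 arrays. miR-148b-3p was 0.0353, the floor, on Th2_IL33 1. miR-378a-3p was 0.250 on Th2_IL33 3, the lowest of that group.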

How the results depend on the processing

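Of 521 values for the 23 named miRNAs under 23 alternatives, 470 kept their side of the threshold without a change of sign, 19 lost the call, 2 gained one and 30 changed sign. A difference of 0 was counted as kept, as for miR-21a-5p with quantile normalization. The number of miRNAs that rose was 4 with slide as a block, 4 with slide and replicate block together and 3 with the replicate block, which ended the call of miR-222-5p and no other. It ranged from 3 to 4 when each of the 8 arrays was left out, and 0 miRNAs passed the threshold as lower under any alternative. It was 0 on slide 2 only (4 residual degrees of freedom), and 2 with normexp, in the authors' deposited table, with the percentile over all miRNAs and among the 178 miRNAs detected on all 16 arrays, a set that leaves out miR-155-5p and miR-21a-3p. The interaction count was 1 with array weights (miR-155-5p). The miRNAs that changed sign passed the threshold under none of the alternatives. With slide as a block miR-674-5p was 0.0539, miR-181a-5p 0.109 and miR-378a-3p 0.0953. With slide and replicate block together they were 0.147, 0.185 and 0.200, miR-148b-3p was 0.0275 and miR-3102-5p 0.0039. On slide 2 only, miR-674-5p was 0.0586, miR-181a-5p 0.415, miR-148b-3p 0.0816, miR-223-3p 0.516, miR-378a-3p 0.266, miR-21a-5p -0.0207, miR-511-3p -0.0214 and miR-212-3p -0.150. miR-148b-3p was 0.0094 with normexp, 0.0667 in the authors' deposited table and 0.0048 with the percentile over all miRNAs. That percentile gave 0.0118 for miR-3102-5p and 0.0530 for miR-378a-3p. The authors' deposited table gave 0.0030 for miR-378a-3p and -0.0181 for miR-511-3p. The mean of log2 probes gave 0.0049 for miR-674-5p. Array weights gave 6e-04 for miR-206-3p, 0.0138 for miR-669k-5p and 0.0173 for miR-3102-5p. Leaving out arrays moved miR-378a-3p between -0.1601 and 0.0571 and miR-223-3p between -0.3703 and 0.0213. The cause was not tested. Without a detection filter most variances were 0, so that fit is unreliable. Signals near the floor limit miR-155-5p, miR-21a-3p and miR-99b-5p.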
